A study of Mus musculus with 8 samples.

Results

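The GADD45 genes are described here across 8 RNA-seq libraries of mouse testis, together with Gadd45gip1, whose product binds GADD45 proteins. The 4 members are the rows of the gene table with the symbols Gadd45a, Gadd45b, Gadd45g and Gadd45gip1, out of 17121 genes in all. They were chosen by name with their values and their difference between the genotypes already known, so their own difference is given as a description, with no test. GADD45 proteins are small acidic proteins with no enzyme activity of their own. They bind and activate the kinase MAP3K4, which stands at the head of the p38 and JNK stress kinase cascade, and they also bind PCNA, p21 and the CDK1 to cyclin B1 complex. Their genes are switched on quickly by DNA damage and other stress, and in the fetal mouse gonad Gadd45g is needed for timely expression of the testis-determining gene Sry. Gadd45gip1 (also called Crif1) shares only part of its name with the family. Its product sits in the large subunit of the mitochondrial ribosome.

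The series set testes with the genotype label N6amt1-SKO (4 libraries, called SKO 1 to 4) against testes labelled CTL (4 libraries, CTL 1 to 4), to study N6AMT1, a methyltransferase, in sperm formation. The labels do not spell out SKO, name no Cre driver, strain or age, and do not say whether the libraries came from separate animals, so the spread between libraries may be technical. Heart ventricles are named in the protocol for extraction, but the Sertoli cell gene Sox9 had normalised values of 5710.1 to 11200.4 in SKO-labelled and 2818 to 4183 in CTL-labelled libraries, and the spermatocyte gene Piwil1, picked after its values were seen, averaged 34862 ± 5243 in SKO-labelled libraries and 57969 ± 4655 in CTL-labelled libraries (SD, n = 4 each).

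A normalised value is the deposited scaled read count of a gene divided by a scaling factor per library. The targeted gene N6amt1 had normalised values of 586, 557, 561 and 625 in SKO 1 to 4, against 475, 433, 629 and 514 in CTL 1 to 4. It was thus not lower in the libraries labelled N6amt1-SKO (582 ± 31.1, against 513 ± 84.6 in those labelled CTL, SD, n = 4 each, limma adjusted p = 0.437). The extent of the altered segment is unknown from the sources used here, and a count over the whole gene does not check a deletion that leaves most of the transcript. All directions given here therefore rest on the labels, and groups are called by them.

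Column totals lay between 94.18 M and 103.1 M scaled counts. An estimated 40.6 M to 65.6 M reads stood behind the SKO-labelled libraries and 57.4 M to 258 M reads behind the CTL-labelled libraries. Ribosomal 18S RNA took 0.969% of the total in SKO 4, 0.731% in CTL 3 and 0.721% in CTL 4, against 0.173% to 0.273% in the other 5 libraries. These 3 libraries are called the higher 18S libraries, and this split crosses the genotypes. Mitochondrial transcripts took 2.11% to 4.53% in SKO-labelled libraries and 1.13% to 1.99% in CTL-labelled libraries. Of 17066 genes tested with limma, 2038 rose and 1354 fell in SKO-labelled libraries at an adjusted p below 0.05. Without SKO 3 the count was 0 for both directions, although 4784 genes had an unadjusted p under 0.05. Leaving out CTL 3 gave 688 risen and 549 fallen genes, SKO 1 gave 812 and 469, SKO 2 gave 829 and 504, and CTL 2 gave 1108 and 1190.

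The promoters of the 3 GADD45 genes are shown because these genes were all higher on average in SKO-labelled libraries, and because they are the regulatory DNA on which stress signals are known to act. Gadd45gip1, also higher on average, had no promoter sequence in the source used and is not shown. Each line gives the 250 bases before the RefSeq transcript start of GRCm38.p6, 5′ to 3′ on the strand of the gene. Capitals mark matches to any of 6 short motifs, searched on both strands: the CCAAT box (CCAAT), the octamer bound by OCT-1 (ATTTGCAT), the cyclic AMP element (TGACGTCA), the amino acid response element (TGATGNAA), the Sp1 box (GGGCGG) and the TATA box (TATAAA).
Gadd45a, chr6:67037408-67037657, minus strand: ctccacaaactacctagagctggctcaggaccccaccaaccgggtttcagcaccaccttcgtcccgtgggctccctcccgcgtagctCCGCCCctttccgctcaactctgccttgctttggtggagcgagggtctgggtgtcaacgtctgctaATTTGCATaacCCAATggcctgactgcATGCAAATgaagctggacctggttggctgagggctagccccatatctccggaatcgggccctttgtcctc
Gadd45b, chr10:80929841-80930090, plus strand: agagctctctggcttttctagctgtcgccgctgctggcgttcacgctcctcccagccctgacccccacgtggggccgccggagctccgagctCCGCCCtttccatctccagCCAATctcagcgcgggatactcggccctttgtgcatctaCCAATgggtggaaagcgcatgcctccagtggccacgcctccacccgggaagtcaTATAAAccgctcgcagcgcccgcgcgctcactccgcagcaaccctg
Gadd45g, chr13:51846425-51846674, plus strand: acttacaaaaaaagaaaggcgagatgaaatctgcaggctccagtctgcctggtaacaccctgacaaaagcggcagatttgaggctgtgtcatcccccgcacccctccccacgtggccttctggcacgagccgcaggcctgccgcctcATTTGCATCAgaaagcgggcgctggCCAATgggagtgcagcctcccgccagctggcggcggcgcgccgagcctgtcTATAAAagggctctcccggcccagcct

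**Figure D1:**
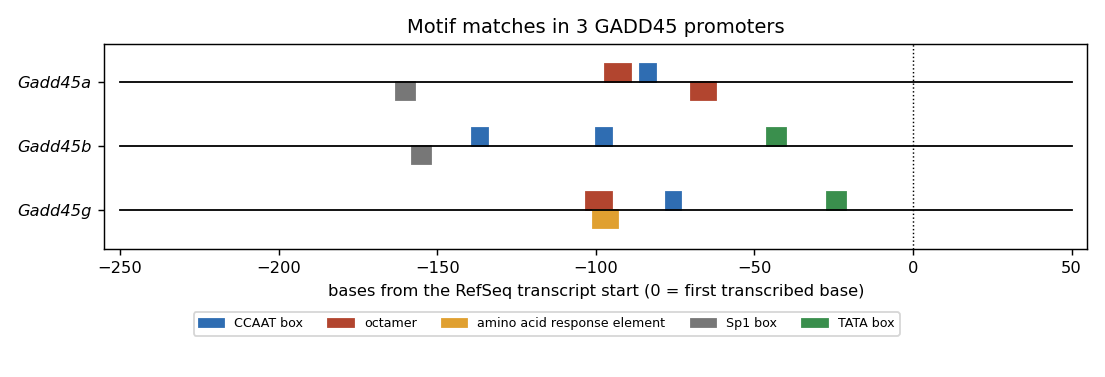
Motif matches in the promoters of Gadd45a, Gadd45b and Gadd45g. The x axis is the distance in bases from the RefSeq transcript start, boxes above a line are matches on the strand of the gene and boxes below it on the other strand. All 3 promoters hold a CCAAT box within 139 bases of the start, and Gadd45a and Gadd45g hold the octamer.

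All 3 promoters hold a CCAAT box, as do 37.4% of 32544 mouse promoters of 300 bases (250 before and 50 after the start). Gadd45b has a pair of them, starting 139 and 100 bases before the start. The octamer is in 1.75% of promoters. It is present once in Gadd45g, 103 bases before the start, and on either strand of Gadd45a, 97 and 70 bases before the start. In Gadd45g the octamer overlaps a match to the amino acid response element on the other strand, which 3.91% of promoters hold. The Sp1 box (35.9% of promoters) is in Gadd45a and Gadd45b, and the TATA box (13.6%) is in Gadd45b and Gadd45g. No match to the cyclic AMP element (1.80% of promoters) was found in the 3 windows. A match of letters does not show that a factor binds there.

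Gadd45a, the founding member and a known p53 target (chromosome 6, 67035096 to 67037407 in GRCm38), had normalised values of 404, 321, 461 and 277 in SKO 1 to 4, against 208, 157, 59.8 and 124 in CTL 1 to 4. Every SKO-labelled library lay above every CTL-labelled library, and CTL 3 was the lowest of all 8. The means were 366 ± 82.4 in SKO-labelled libraries and 137 ± 62.2 in CTL-labelled libraries (SD, n = 4 each). On the log2(value + 5) scale the difference was 1.48 (standard error 0.36), which is 2.79-fold. An estimated 119 to 301 reads stood behind each value in the SKO-labelled libraries and 35 to 520 in the CTL-labelled libraries. The 520 is from CTL 1, and depth is less certain in CTL 1 and CTL 2 than in the other libraries.

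Part of the signal at this locus cannot be assigned to a strand. In GENCODE M21, 19.1% of the exon bases of Gadd45a overlap exons of E230016M11Rik, a noncoding RNA gene on the opposite strand, and the library kit does not mark strand. E230016M11Rik had 97.0, 65.8, 68.5 and 149.6 in SKO 1 to 4, against 33.5, 14.6, 10.5 and 16.0 in CTL 1 to 4. It was thus also higher in each SKO-labelled library, but in another order, since SKO 4 was its highest library and the lowest SKO-labelled library for Gadd45a. It reached the value of 25 used as a filter in all 4 SKO-labelled libraries and in 1 CTL-labelled library. An estimated 6 to 84 reads stood behind its CTL values. Whether the authors counted reads in the overlap for both genes, the sources used here do not state.

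Gadd45b, a rapid response gene also known as Myd118 (chromosome 10, 80930091 to 80932204), had 1441, 745, 904 and 607 in SKO 1 to 4. CTL 1 to 4 had 599.8, 477, 334 and 173. SKO 1 stood well above the rest, and the groups just failed to overlap, since SKO 4 and CTL 1 were nearly level. The means were 924 ± 365 in SKO-labelled libraries and 396 ± 184 in CTL-labelled libraries (SD, n = 4 each). On the log2 scale the difference was 1.27 (standard error 0.39), which is 2.42-fold.

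Gadd45g, the member that acts through MAP3K4 in mouse sex determination (chromosome 13, 51846675 to 51848475), had 1286, 652, 666 and 314 in SKO 1 to 4. CTL 1 to 4 had 661, 597, 92.6 and 28.5. The groups overlapped: CTL 1 and CTL 2 lay level with SKO 2 and SKO 3 and above SKO 4, whereas CTL 3 and CTL 4 fell far below all other libraries. About 54 and 14 reads stood behind the values of CTL 3 and CTL 4. The means were 729.7 ± 405 in SKO-labelled libraries and 345 ± 330.1 in CTL-labelled libraries (SD, n = 4 each). The log2 fold change of 1.78 (3.43-fold) had a standard error of 0.90, the largest of the 4 members.

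Gadd45gip1, the mitochondrial ribosome protein gene (chromosome 8, 84832282 to 84835482), had 552, 617, 582 and 593 in SKO 1 to 4, against 602, 442, 487 and 465 in CTL 1 to 4. Only CTL 1 reached the range of the SKO-labelled libraries, and the SKO values lay close together. The means were 586 ± 26.7 in SKO-labelled libraries and 499 ± 70.9 in CTL-labelled libraries (SD, n = 4 each). The log2 fold change was 0.24 (standard error 0.16), or 1.18-fold.

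**Figure D2:**
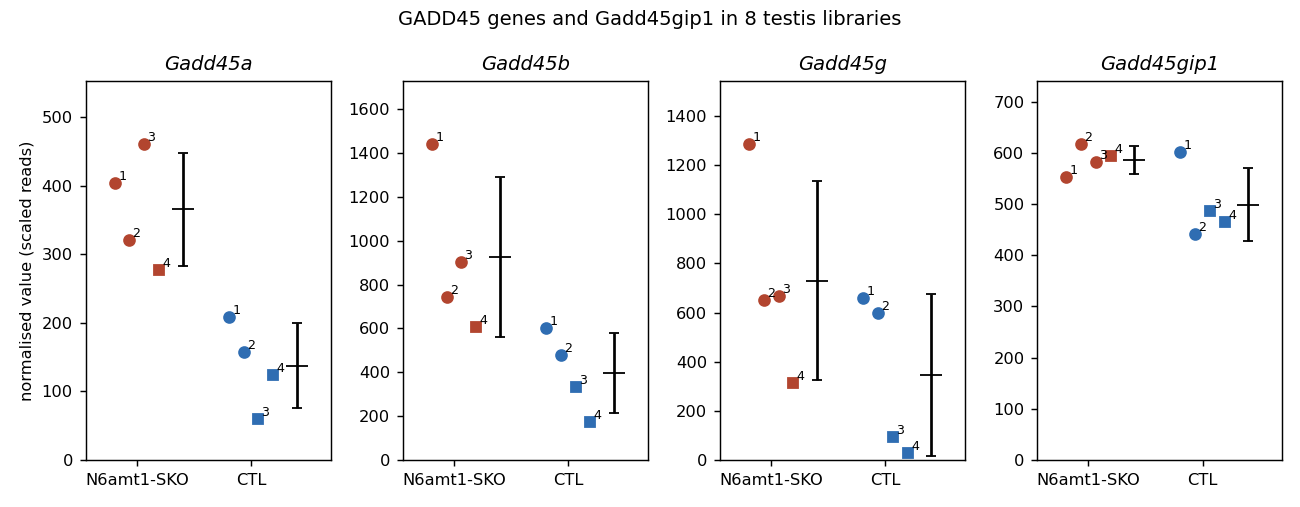
Normalised values (y axis, from 0) of the 4 members in the N6amt1-SKO and CTL-labelled libraries. Each point is a library with its replicate number, squares are the 3 higher 18S libraries, and bars are the mean and SD (n = 4). Gadd45a and Gadd45b do not overlap between groups, Gadd45g overlaps with CTL 3 and CTL 4 near the bottom, and Gadd45gip1 stays between 442 and 617.

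By the same rule as for all genes, 2 of the 4 members (Gadd45a and Gadd45b) passed as risen and 0 as fallen (limma adjusted p below 0.05), beside 11.9% of all genes risen and 7.93% fallen. The same 2 were higher with no overlap of the groups, as were 15.6% of all genes. The members were chosen with this contrast in view, so these counts are not evidence about the family. The count also moved with the processing. It was 1 (Gadd45a) with median-ratio factors, with no variance trend, within the lower 18S libraries, and without CTL 2, CTL 3 or CTL 4. It was 0 within the higher 18S libraries and without SKO 1, SKO 2 or SKO 3, and 3 (with Gadd45g) under the replicate block and without both CTL 1 and CTL 2. All 4 passed the filter on low values in all 8 libraries, and no member sat near that limit except Gadd45g in CTL 4.

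Per kilobase of exon, Gadd45g and Gadd45b had the highest levels in SKO-labelled libraries, with 622 ± 345 and 582 ± 230 (normalised value per kb, SD, n = 4). Gadd45gip1 followed with 235 ± 10.7 and Gadd45a with 207 ± 46.7. In CTL-labelled libraries the levels per kilobase were 294 ± 281 for Gadd45g, 249 ± 116 for Gadd45b, 200 ± 28.4 for Gadd45gip1 and 77.8 ± 35.3 for Gadd45a. In SKO-labelled libraries Gadd45g and Gadd45b overlapped, as did Gadd45gip1 and Gadd45a, whereas the lowest library of Gadd45b (382) was above the highest of Gadd45gip1 (247). In CTL-labelled libraries the values of Gadd45g, Gadd45b and Gadd45gip1 overlapped. Gadd45a overlapped with Gadd45g and Gadd45b there, but its highest library (118) was below the lowest of Gadd45gip1 (177).

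The members differed in how much they varied within a genotype label. Among SKO-labelled libraries the highest value was 4.09 times the lowest for Gadd45g, 2.37 times for Gadd45b, 1.66 times for Gadd45a and 1.12 times for Gadd45gip1. Among CTL-labelled libraries the ratio was 23.2 for Gadd45g, against 3.46 for Gadd45b, 3.49 for Gadd45a and 1.36 for Gadd45gip1. The SD of the log2 values of Gadd45g was 0.82 in SKO-labelled and 2.10 in CTL-labelled libraries. In CTL-labelled libraries this was above that of 99.7% of the 3521 genes within a factor of 2 of its mean level, whose median SD was 0.34. The SD of Gadd45gip1 in SKO-labelled libraries was 0.07, lower than in all but 1.59% of 3530 genes of like level.

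Gadd45b and Gadd45g varied together within the genotypes. The Pearson correlation of their deviations from the group means was 0.94 over the 8 libraries, against 0.62 for Gadd45a with Gadd45g and 0.50 for Gadd45a with Gadd45b. For Gadd45gip1 the values were 0.28, 0.26 and 0.27 with Gadd45a, Gadd45b and Gadd45g. These are descriptions over few libraries that also share depth, 18S content and cell make-up.

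**Figure D3:**
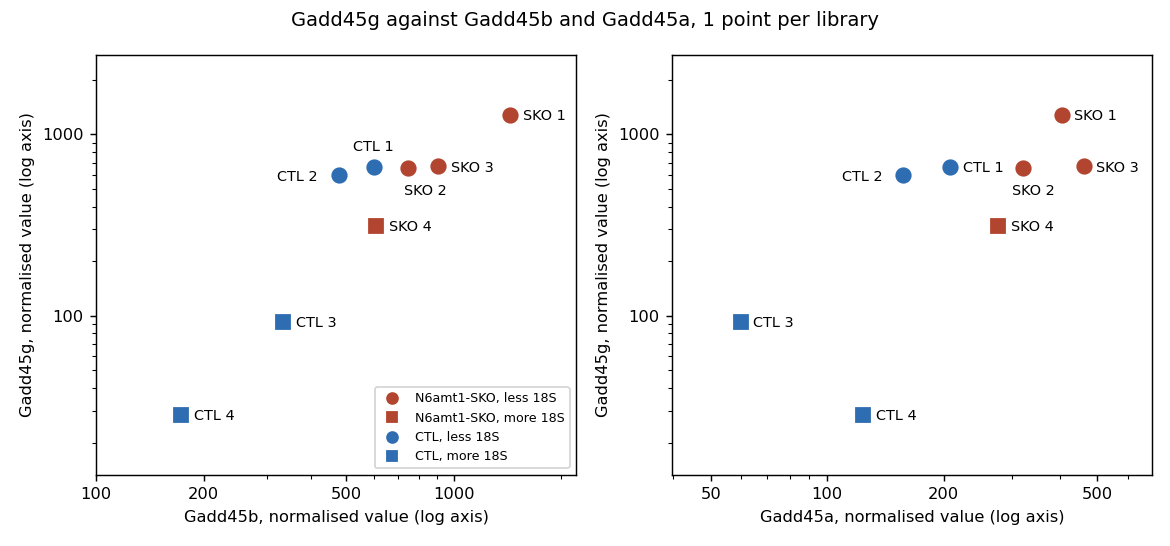
Gadd45g (y axis) against Gadd45b (left) and Gadd45a (right), as normalised values on log axes, with 1 point per library. SKO 1 is highest for both Gadd45g and Gadd45b, and CTL 3 and CTL 4 lie apart at the low end with 92.6 and 28.5 for Gadd45g.

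The size of the differences went with the library set. Within the lower 18S libraries, Gadd45g averaged 868 in SKO 1 to 3 and 629 in CTL 1 and 2, a log2 difference of 0.39. Within the higher 18S libraries it was 314 in SKO 4 and 60.5 on average in CTL 3 and 4, a log2 difference of 2.48. Gadd45a had log2 differences of 1.09 and 1.62 within the lower and higher sets, Gadd45b 0.88 and 1.31, and Gadd45gip1 0.18 and 0.31. The higher set holds a single SKO-labelled library, so its values have no spread on that side. With CTL 1 and CTL 2, the deepest libraries by estimate, left out, the log2 fold change of Gadd45g was 3.47, and without CTL 4 it was 0.91. No alternative in this work turned the direction of any of the 4 members.

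**Figure D4:**
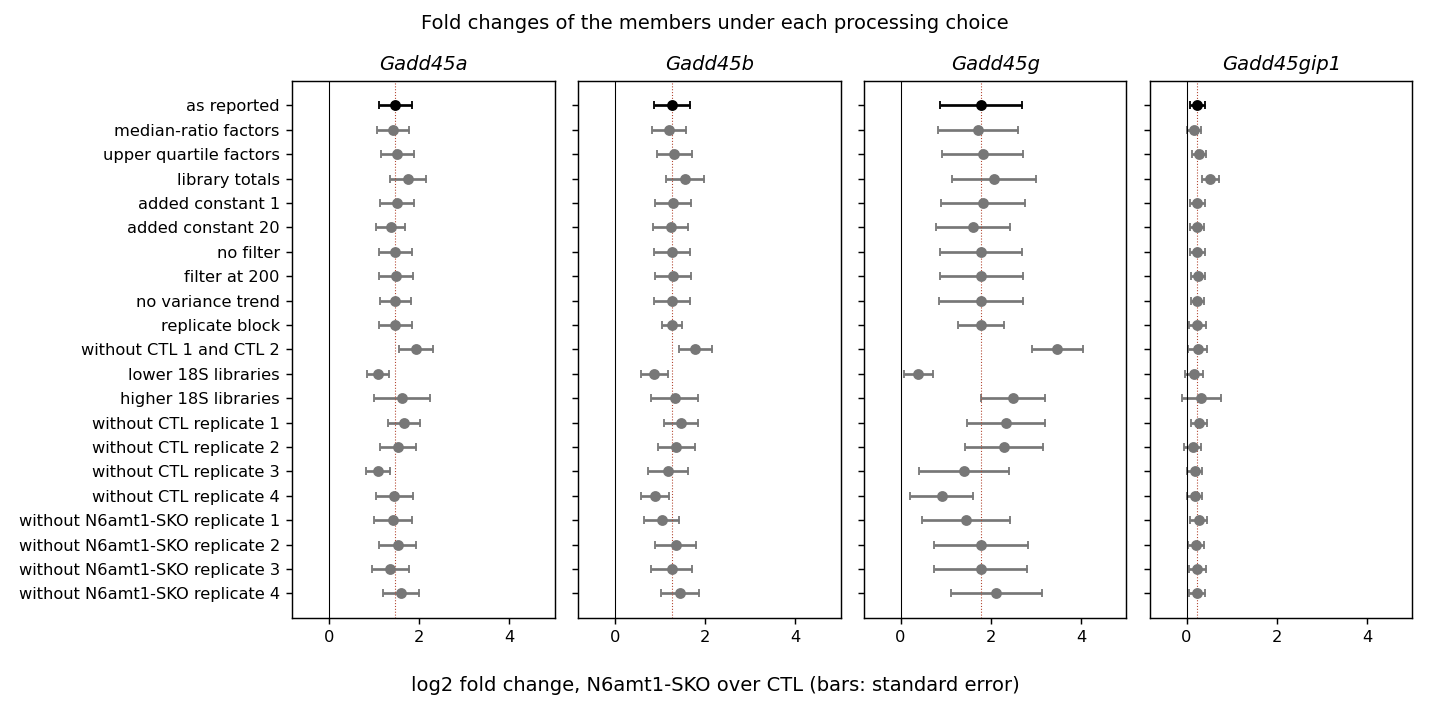
Log2 fold changes of the 4 members (x axis, N6amt1-SKO over CTL) under each processing choice (rows), with bars of 1 standard error. Gadd45a stays at or above 1.09 and Gadd45b at or above 0.88, Gadd45g ranges between 0.39 and 3.47, and Gadd45gip1 between 0.14 and 0.53.

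Cell type markers moved between the same libraries. In bulk testis, fewer cells of a type and less RNA per cell cannot be told apart. Of 16 Sertoli cell markers 13 rose (81.2%, against 11.9% of all genes) and 0 fell, and their summed normalised value was 440353 in SKO 1, 385103 in SKO 2, 412069 in SKO 3 and 227037 in SKO 4, against 225786, 222009, 111649 and 116590.4 in CTL 1 to 4. Of 8 elongating spermatid markers none passed (0 rose and 0 fell), but their sum ranged widely, from 152687 to 511152 in SKO-labelled libraries and from 94592 to 603662 in CTL-labelled libraries. It was highest in SKO 1 among SKO-labelled libraries, and in CTL-labelled libraries it was 506659.8, 603662, 247694 and 94592 in CTL 1 to 4. Within genotypes, the median correlation of these 8 markers with Gadd45b was 0.93 and with Gadd45g 0.92, against 0.02 for all genes with each. With the 8 round spermatid markers the medians were 0.82 and 0.91, with the 16 Sertoli markers 0.74 and 0.77, and with the 10 spermatocyte markers -0.27 and -0.33. For Gadd45a the medians were 0.61 with Sertoli, 0.61 with spermatogonial, 0.51 with round spermatid and 0.36 with elongating spermatid markers. With peritubular myoid markers they were 0.56 for Gadd45a, 0.56 for Gadd45b and 0.60 for Gadd45g. For Gadd45gip1 they were 0.18 with Sertoli and 0.11 with elongating spermatid markers. Only markers that passed the filter on low values were counted, so none of them could be at 0 in every library. The part of cell make-up in the members' differences was not tested.

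Other marker lists are read beside the 11.9% of all genes that rose and the 7.93% that fell. Of 10 spermatocyte markers 1 rose and 3 fell, with sums of 499407 to 558110.5 in SKO-labelled libraries and 639242 to 802554 in CTL-labelled libraries. Of 9 spermatogonial markers 5 rose and 0 fell, of 7 peritubular myoid markers 4 rose and 0 fell, and of 10 macrophage markers 2 rose and 0 fell. Of 8 Leydig cell markers 1 rose (12.5%, at the share of all genes) and 0 fell, and of 8 endothelial markers 2 rose and 0 fell. Of 11 heart muscle markers only 6 were tested, and Actc1, Nppa, Nppb, Myl2 and Myl3 were not. Of these 6 tested markers 2 rose (Tnnt2 and Tnni3) and 0 fell. The 6 summed to 4377 to 6882 in SKO-labelled libraries and 2281 to 2897 in CTL-labelled libraries.

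The genes with the most similar pattern within genotypes were named by the correlation of deviations from the group means over 8 libraries, among 15765 genes with a mean of at least 100. For Gadd45g these were Ndufa4l2, Bsdc1 and Celf6 (r of 0.998, 0.997 and 0.997). For Gadd45b they were Pmf1, Hspbp1 and Atp6v0b (0.994, 0.993 and 0.989), and for Gadd45a Pdcd6, Zfas1 and Gm3435 (0.991, 0.982 and 0.981). For Gadd45gip1 the nearest were Gpx7, Hebp2 and D930048N14Rik, with lower values of 0.922, 0.893 and 0.888. Of the 9 neighbours of the 3 GADD45 genes 0 passed the test between genotypes (limma adjusted p from 0.0521 for Zfas1 to 0.944 for Ndufa4l2). The 3 neighbours of Gadd45gip1 each rose, with limma adjusted p between 0.0123 and 0.0141. Of all genes 11.9% rose and 7.93% fell. The neighbours were picked by their pattern within genotypes and are few, so these counts are not a result about the members. With so many genes and 8 libraries, high values are common.

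Genes of the kinase cascade downstream of GADD45 proteins were called in both directions. Of 19 genes of the p38 and JNK cascade 5 rose, 2 fell and 12 did not pass, with a median log2 fold change of 0.17 beside 0.04 for all genes. The risen share was 26.3%, against 11.9% of all genes. Of all genes 7.93% fell, so the 2 fallen genes of the 19 lie near the background. Mapkapk3, a kinase activated by p38, rose 2.42-fold (means 1342 ± 258 in SKO-labelled and 558 ± 148 in CTL-labelled libraries, SD, n = 4 each, limma adjusted p = 0.0129). Mapk13, p38 delta, rose 2.41-fold (limma adjusted p = 0.0148), and Mapk14, the widely expressed p38 alpha, rose 1.59-fold with values of 4446, 5846, 5584 and 4244 in SKO 1 to 4 and 2910.5, 2864, 3378 and 3421 in CTL 1 to 4 (limma adjusted p = 0.0193). Mapk11, p38 beta, was 2.03-fold lower (limma adjusted p = 0.0439), and Mapk10, a JNK gene, 1.52-fold lower (limma adjusted p = 0.0153). The direct GADD45 partner Map3k4 had 6779 ± 1047 in SKO-labelled and 5750.4 ± 1692 in CTL-labelled libraries (SD, n = 4 each), short of the threshold (limma adjusted p = 0.396). The count of 7 calls became 3 without CTL 2, CTL 3 or SKO 2, 4 without SKO 1 and 0 without SKO 3. Within the higher 18S libraries no gene of this list was called, and the log2 fold change of Map3k4 was -0.28. With library totals neither Mapk11 nor Mapk10 passed.

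**Figure D5:**
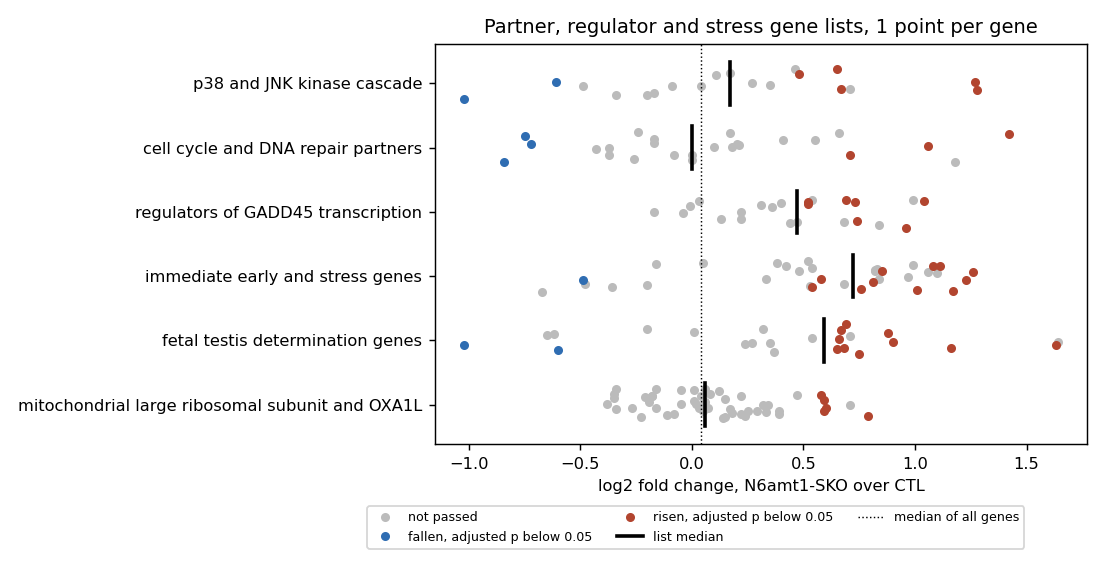
Log2 fold changes (x axis, N6amt1-SKO over CTL) of the genes of 6 lists, with 1 point per gene. Red points rose and blue points fell at a limma adjusted p below 0.05, black bars are list medians and the dotted line is the median of all genes at 0.04. The medians are 0.72 for stress genes and 0.06 for the mitochondrial ribosome.

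Among other proteins that GADD45 proteins bind or act with in the cell cycle, DNA repair and DNA demethylation, 3 of 25 genes rose and 3 fell, with a median log2 fold change of 0.00. The share risen lay at the background, since 11.9% of all genes rose, and 7.93% of all genes fell. Neil1, a DNA glycosylase, rose 2.67-fold at a low level (92.0 ± 25.8 in SKO-labelled and 33.0 ± 14.3 in CTL-labelled libraries, SD, n = 4 each, limma adjusted p = 0.0452). The 5-methylcytosine oxidase genes Tet2 and Tet3 rose 2.08-fold and 1.64-fold (limma adjusted p = 0.042 and 0.036), although their groups overlapped. The DNA ligase gene Lig3, 25.1% of whose exon bases overlap Rffl on the opposite strand, was 1.79-fold lower (limma adjusted p = 0.0156). The kinase gene Aurka and the nuclease gene Ercc4 were 1.69-fold and 1.65-fold lower (limma adjusted p = 0.0371 and 0.0213). The groups of Aurka overlapped, with 23801 in SKO 4 and 23695 in CTL 2. Pcna and Cdk1, which encode direct binding partners, had log2 fold changes of -0.08 ± 0.14 and 0.00 ± 0.18 (± standard error, limma adjusted p = 0.695 and 0.99). Cdkn1a, which encodes p21, had 1072 ± 57.3 in SKO-labelled and 814 ± 146 in CTL-labelled libraries (SD, n = 4 each), short of the threshold, although its groups did not overlap (limma adjusted p = 0.0999). Tdg, the glycosylase that GADD45A works with in DNA demethylation, had 1552 ± 413 and 986 ± 268 in SKO-labelled and CTL-labelled libraries (SD, n = 4 each, limma adjusted p = 0.121). The 6 calls became 3 without CTL 1 or CTL 2, 1 without CTL 3 or SKO 2, 2 without SKO 1 and 0 without SKO 3. With median-ratio factors Neil1, Tet2 and Tet3 did not pass, and with library totals Aurka did not.

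Among regulators known to act on GADD45 transcription, 7 of 23 genes rose (30.4%, against 11.9% of all genes) and 0 fell, with a median log2 fold change of 0.47. Trp53, which encodes p53, rose 2.05-fold and had 4576, 3619.7, 3889 and 3524 in SKO 1 to 4, against 2661, 2166, 1769.5 and 1242 in CTL 1 to 4 (limma adjusted p = 0.0172). Every SKO-labelled library was above every CTL-labelled library. Smad3, a TGF-beta signal carrier, rose 1.94-fold and the cell cycle factor E2f1 1.67-fold (limma adjusted p = 0.0137 and 0.0316). Nfya and Nfyc, subunits of the factor that binds CCAAT boxes such as those printed above, rose 1.43-fold and 1.44-fold (limma adjusted p = 0.0394 and 0.0184). The remaining subunit gene, Nfyb, had a log2 fold change of 0.44 and did not pass (limma adjusted p = 0.0759). Pou2f1, which encodes OCT-1, had -0.01 and did not pass either (limma adjusted p = 0.966). Whether these factors act on the members here was not tested. Wt1, a Sertoli cell marker as well, and Foxo4 rose 1.61-fold and 1.66-fold (limma adjusted p = 0.0137 and 0.0429). Nfya, Nfyc, Wt1 and Foxo4 complete the 7 and were picked after their values were seen. Atf4 and Foxo3, stress response factors, had log2 fold changes of 0.68 ± 0.36 and 0.47 ± 0.26 (± standard error) and did not pass (limma adjusted p = 0.194 and 0.216). The 7 calls became 3 without CTL 2, 2 without CTL 3 or SKO 1, 4 without SKO 2 and 0 without SKO 3. Within the higher 18S libraries 0 genes of this list were called.

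Immediate early and stress genes, the class to which GADD45 genes belong, had the highest median of the 6 lists, a log2 fold change of 0.72. Of 34 genes 11 rose (32.4%, against 11.9% of all genes), 1 fell and 22 did not pass. The small heat shock gene Hspb1 rose 2.39-fold (3493 ± 219.7 in SKO-labelled and 1504 ± 439 in CTL-labelled libraries, SD, n = 4 each, limma adjusted p = 0.0123). Ddit4, a stress-induced inhibitor of mTORC1, rose 2.34-fold, with 4702, 4297, 4869 and 3067 in SKO 1 to 4 and 2290.4, 2268, 1451 and 1330.0 in CTL 1 to 4 (limma adjusted p = 0.0137). The immediate early gene Ier2 rose 2.25-fold (limma adjusted p = 0.0225). Among the other genes first found as growth arrest and DNA damage inducible, Ppp1r15a (GADD34) rose 1.76-fold, with 1481, 919, 1285 and 1381 in SKO 1 to 4 and 858, 844, 605 and 571 in CTL 1 to 4 (limma adjusted p = 0.0284). Ddit3 (CHOP, or GADD153) had a log2 fold change of -0.36 ± 0.16 (± standard error) and did not pass (limma adjusted p = 0.142). Jun rose 1.46-fold (limma adjusted p = 0.0264), and Fos and Atf3, with log2 fold changes of 1.06 ± 0.46 and 1.10 ± 0.40 (± standard error), did not pass (limma adjusted p = 0.123 and 0.0799). Dnajb1, a co-chaperone that is abundant in testis, was 1.40-fold lower (limma adjusted p = 0.047), but did not pass with upper quartile factors, library totals or no variance trend. Within genotypes the median correlation of the 34 genes was 0.69 with Gadd45b, 0.56 with Gadd45g, 0.32 with Gadd45a and 0.12 with Gadd45gip1, beside 0.02, 0.02, 0.03 and 0.01 for all genes. The 12 calls became 3 without CTL 3 or SKO 1, 5 without SKO 2 and 0 without SKO 3. Within the higher 18S libraries 2 genes of this list were called.

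Genes of fetal testis determination, the process in which Gadd45g and Map3k4 act upstream of Sry, rose in part. Of 24 genes 10 rose (41.7%, against 11.9% of all genes) and 2 fell, with a median log2 fold change of 0.59. Of all genes 7.93% fell, so the fallen count lies near the background. Of the list, 5 genes are also on the Sertoli list (Amh, Dhh, Gata4, Sox9 and Wt1), and each of these 5 is among the risen genes. The called genes Mapk14 and Mapk11 are also on the p38 and JNK list. The risen gene Wt1 is also on the regulator list, and the risen gene Dmrt1 on the spermatogonial list. The counts of these lists are thus not independent. Sry itself is not analysed here. Amh, the anti-Müllerian hormone gene, rose 3.09-fold, Sox9, the target of SRY, 2.23-fold and Dmrt1, a factor that maintains male fate, 1.86-fold (limma adjusted p = 0.0284, 0.0147 and 0.0123). Gata4, which p38 signalling activates in the fetal gonad, rose 1.57-fold (limma adjusted p = 0.0236). Mapk11 and Zfpm2, a GATA4 cofactor gene, fell, with Zfpm2 1.51-fold lower (limma adjusted p = 0.048). With library totals neither Mapk11 nor Zfpm2 passed, and Zfpm2 did not pass with upper quartile factors. The 12 calls became 7 without CTL 2 or SKO 1, 6 without CTL 3 or SKO 2 and 0 without SKO 3. Within the higher 18S libraries 1 gene of this list was called.

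For Gadd45gip1 the matching list is the large subunit of the mitochondrial ribosome with the membrane insertase OXA1L, to which the protein is known to bind. Of 51 genes 5 rose, 0 fell and 46 did not pass, and the median log2 fold change was 0.06 beside 0.04 for all genes. Mrpl23 rose 1.73-fold, Mrpl50 1.51-fold and Mrpl58, a peptide release factor of the ribosome, 1.51-fold (limma adjusted p = 0.0225, 0.0226 and 0.0273). Oxa1l had 3879 ± 181 in SKO-labelled and 3123 ± 506 in CTL-labelled libraries (SD, n = 4 each), short of the threshold (limma adjusted p = 0.129). The 5 calls became 3 without CTL 1, 2 without CTL 2, CTL 4 or SKO 2, and 0 without CTL 3, SKO 1 or SKO 3. The list's share of risen genes, 9.80%, lay near the 11.9% of all genes.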

How the data were processed

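The 8 testis RNA-seq libraries fall into 4 of each genotype. The authors deposited whole numbers that are read counts scaled separately in each library, so their unit is treated here as a score. The scaling is not given in sources used here. CASAVA, fastp, HISAT2 2.0.5, featureCounts 1.5.0-p3 and the mm10 build are named per the submitters' processing notes. Relative depth was recovered from the regular gaps between whole numbers in each column. In CTL 1 and CTL 2, where 1 read is worth less than 1 unit and no gaps arise, it rests on how often each whole number occurs, so it is an estimate.

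Each library was divided by its TMM factor (trims of 30% of log ratios and 5% of mean levels). Genes at 25 or more in at least 4 libraries were tested on log2(value + 5) with limma 3.58.1 (R 4.3.3), with a variance trend, a two-sided test and Benjamini-Hochberg adjustment over all 17066 genes at 0.05. The fit was tested on simulated data. A fold change on this scale understates the change of low genes. The p-values set the difference between groups against the variation between libraries within groups. The labels do not name separate animals, so that variation may be technical.

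The members and lists were chosen with earlier results of these data known. Named genes are the members, genes overlapping their exons, up to 3 risen and 3 fallen genes of each list with the largest change, a set of key genes, and the 3 genes nearest to each member by correlation. Exon overlaps come from GENCODE M21, and gene positions and promoters from RefSeq GRCm38.p6. The 18S split was drawn at 0.5% of the total. Alternatives were other scaling factors, added constants, filters, a replicate block, and leaving out libraries or 18S sets. Some results are not reported here.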

Additional observations from a re-analysis of the deposited data

Results flagged for a closer look

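In 114 groups of 4 libraries, 5 had 1 library far from the rest by Dixon's test, which chance gives in about 1 in 20 groups. Hspb1 was 3821 in SKO 1, against 3358 to 3401 in the other SKO-labelled libraries. Cdk1 was 8341 in SKO 4, against 4961 to 5441 in the others. Hebp2, the gene near Gadd45gip1 in pattern, was 1033 in SKO 2, against 959 to 971 in the others. Mapk13 was 315 in CTL 1, against 181 to 199 in the other CTL-labelled libraries. Tdg was 587 in CTL 3, against 1064 to 1146 in the others. No group of the 4 members stood out in this way.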

How the results depend on the processing

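The 4 members were higher in SKO-labelled libraries under all alternatives run. With library totals, which moved the median of all genes to a log2 fold change of 0.329 against 0.042, 4885 genes rose and 456 fell (91.5% of calls risen, against 60.1%). The share was 49.2% with median-ratio factors (1602 risen, 1657 fallen) and 67.4% with upper quartile factors. With library totals the called genes were 16 of the regulators, 20 of the stress list and 13 of the mitochondrial ribosome, and Gadd45gip1 had 0.53. With median-ratio factors 3 repair partners were called. Within the lower 18S libraries 3194 genes rose and 2283 fell. Within the higher 18S libraries 43 rose and 252 fell, with 0 calls in the p38 and JNK, regulator and mitochondrial lists, 1 in the repair and fetal testis lists and 2 in the stress list. Without CTL 1 and CTL 2, 2322 genes fell, 9 mitochondrial ribosome genes were called and Gadd45g had 3.47. The causes were not tested.

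Leaving out 1 library gave 0 to 2455 risen and 0 to 1526 fallen genes, and list calls of 0 to 7 (p38 and JNK), 0 to 6 (repair partners), 0 to 9 (regulators), 0 to 17 (stress), 0 to 12 (fetal testis) and 0 to 7 (mitochondrial ribosome). The log2 fold changes ran from 1.09 to 1.67 for Gadd45a, 0.90 to 1.47 for Gadd45b, 0.91 to 2.34 for Gadd45g and 0.14 to 0.28 for Gadd45gip1.

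Some genes that did not pass changed sign: Map3k4 -0.28, Pcna 0.17, Ddit3 0.01, Rn18s 0.10 and Ndufa4l2 0.40 within the higher 18S libraries, and Cdk1 -0.05, Rn18s 0.21, Bsdc1 -0.14 and Celf6 -0.58 within the lower. Pcna 0.21, Hspbp1 0.22 and Ndufa4l2 0.22 did so with library totals, Cdk1 -0.06 with median-ratio factors, and Map3k4 -0.15, Cdk1 -0.15, Foxo3 -0.01, Gm3435 0.17, Hspbp1 0.10 and Ndufa4l2 0.90 without CTL 1 and CTL 2. Leaving out 1 library, values ran from -0.16 to 0.09 for Cdk1, -0.58 to 0.23 for Ndufa4l2, -0.06 to 0.23 for Bsdc1 and -0.29 to 0.42 for Celf6.

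The replicate numbers were not shown to pair libraries: same-number correlations of deviations were 0.673, 0.012, 0.082 and 0.231. With the replicate block 2162 genes rose and 1701 fell, with 18 calls in the stress list. Depth is low for Gadd45g in CTL 4, with 14 reads.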
